A study of Homo sapiens with 16 samples.

Results

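INPP5D, DES, CSPG4, C1QTNF4, FUT1, CDC42EP5, SNCG, USH1G and UNC5A, 9 of the 58302 genes counted, were chosen by their large measured increase after Gemin5 silencing and are described here library by library. They were found by symbol in each of the 16 libraries. The libraries came from HEK293, a long-established human cell line derived from embryonic kidney, and held RNA of cytoplasmic lysates (Input) or of pooled heavy fractions of sucrose gradients, which carry mRNAs loaded with several ribosomes (Polysome). Each fraction was sequenced from 4 independent samples of siRNAG5 cells, which received an siRNA against Gemin5 at 100 nM with Lipofectamine 2000, and from 4 independent samples of Ctrl cells. The labels of the Ctrl samples read untreated, whereas the study's text describes Ctrl as cells given a control siRNA. Cells of both kinds carry the same HEK293 background, and polysomes were prepared after cycloheximide, which holds ribosomes on mRNA. Silencing rested on 1 siRNA sequence, so changes particular to that sequence and changes that follow the loss of Gemin5 cannot be told apart.

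The members were chosen for the difference between siRNAG5 and Ctrl, so that difference is a description, given with its standard error (SE) and no p. Polysome against Input within one treatment is likewise a description for the members, because it rests on the same libraries as the choice. Counts of members called repeat the choice and support nothing; tests are reported only for other genes. Genes counted as called had a log2 fold change (log2 FC) beyond 0.5 and an adjusted p (Benjamini-Hochberg) under 0.05 in edgeR's quasi-likelihood test. Fold changes of low counts carry a small added prior count. Levels are given as reads, as CPM, the reads scaled to library size with TMM factors, or, for comparisons between genes, as CPM per kilobase of the canonical transcript (RPKM).

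Gemin5 is an RNA-binding protein that delivers small nuclear RNAs to the SMN complex, and it also binds ribosomes and selected mRNAs. The 9 genes do not belong to one pathway. INPP5D encodes SHIP1, an inositol 5-phosphatase of blood cells that removes a phosphate from the lipid second messenger made by PI3K. CDC42EP5 encodes an effector of the small GTPase CDC42 that binds septins, and UNC5A a receptor for the guidance cue netrin. CSPG4 encodes the NG2 proteoglycan of pericytes and glial precursors, FUT1 the fucosyltransferase that makes the H blood group antigen, and C1QTNF4 a secreted protein of the C1q and TNF related family. DES encodes desmin, the intermediate filament protein of muscle, SNCG encodes gamma-synuclein of sensory neurons, and USH1G a scaffold protein of hair cell stereocilia that is mutated in Usher syndrome.

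The siRNA is shown because every comparison with Ctrl rests on it. Capitals mark the 19 bases that were found in the GENCODE v44 transcripts, in the sense direction, and only in GEMIN5. None of the 9 members held a match to these 19 bases on either strand.
Gemin5 siRNA: CCUUAAUCAAGAAGAGAAAuu

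The targeted gene was measured first. GEMIN5 stood at 17.9 ± 2.32 CPM (SD, n = 4) in Input Ctrl and at 6.71 ± 0.528 CPM in Input siRNAG5, and at 7.43 ± 1.56 CPM in Polysome Ctrl and 2.64 ± 0.495 CPM in Polysome siRNAG5. In both fractions every siRNAG5 library lay below every Ctrl library, with highest values of 7.45 and 3.08 CPM against lowest values of 15.9 and 5.49 CPM. Reads on genes numbered 11145324 to 24511299 per library, with medians of 14193559 in Input Ctrl, 20428398 in Input siRNAG5, 12776340 in Polysome Ctrl and 15810265 in Polysome siRNAG5. All 12 HEK293 markers had reads in all 16 libraries. The 14 liver genes checked summed to between 1.12 and 147 CPM in Input Ctrl, where libraries 3 and 4 held them, and to between 79.0 and 163 CPM in Polysome Ctrl. In siRNAG5 they summed to between 1.07 and 1.26 CPM in Input and between 0.371 and 0.875 CPM in Polysome. A single axis carried 62.3% of the variation within groups in Polysome, against 24.9% in Input. Polysome Ctrl 1, siRNAG5 1 and siRNAG5 4 stood apart at one end of it (loadings of 0.35 to 0.46), Polysome Ctrl 2 lay nearest to them (0.13) and the other libraries had negative loadings.

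The name of the group as the strongest rising genes held only in part. In Input, ranked by log2 FC among 14134 genes tested, INPP5D was at rank 1, DES at 3, CSPG4 at 4, C1QTNF4 at 5 and CDC42EP5 at 6. Rank 2 was taken by GDF15, a stress-induced cytokine that is not among the 9, with a log2 FC of 3.57 ± 0.16 (SE). SNCG was at rank 63 and UNC5A at rank 609, whereas FUT1 and USH1G had too few reads to be tested. In Polysome, ranked among 14420 genes tested, INPP5D was at rank 2, FUT1 at 3, CDC42EP5 at 4, DES at 16, USH1G at 24, UNC5A at 38, C1QTNF4 at 63 and SNCG at 147, with GDF15 again above them at rank 1 (log2 FC 3.87 ± 0.24). CSPG4 was not tested there. SNCG stood out among abundant genes: of the 3890 genes with a mean level in Input at or above its own, SNCG had the largest log2 FC, and of 4618 such genes in Polysome it was at rank 2.

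Of the 9 genes, 7 passed the filter on low counts in Input and 8 in Polysome. A gene near 0 in Ctrl can pass that filter only through its siRNAG5 libraries. In Input 6 of the 7 were called higher, beside 10.5% of all genes tested, and in Polysome 8 of 8, beside 3.95%; the choice of the members fixed these counts. Every siRNAG5 library lay above every Ctrl library for 6 of the 7 genes tested in Input (15.1% of all genes tested), for FUT1, which was not tested there, and for 8 of the 8 tested in Polysome (8.29%). USH1G and UNC5A overlapped in Input, and CSPG4 overlapped in Polysome. The median log2 FC of all genes tested was 0.04 in Input and 0.03 in Polysome. Of the 8 members tested in Polysome, 4 were called when Polysome Ctrl library 2 was left out, a setting in which the calls over all genes fell from 1146 to 189; the log2 FC of these 8 members then ranged from 1.29 to 3.00.

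**Figure D1:**
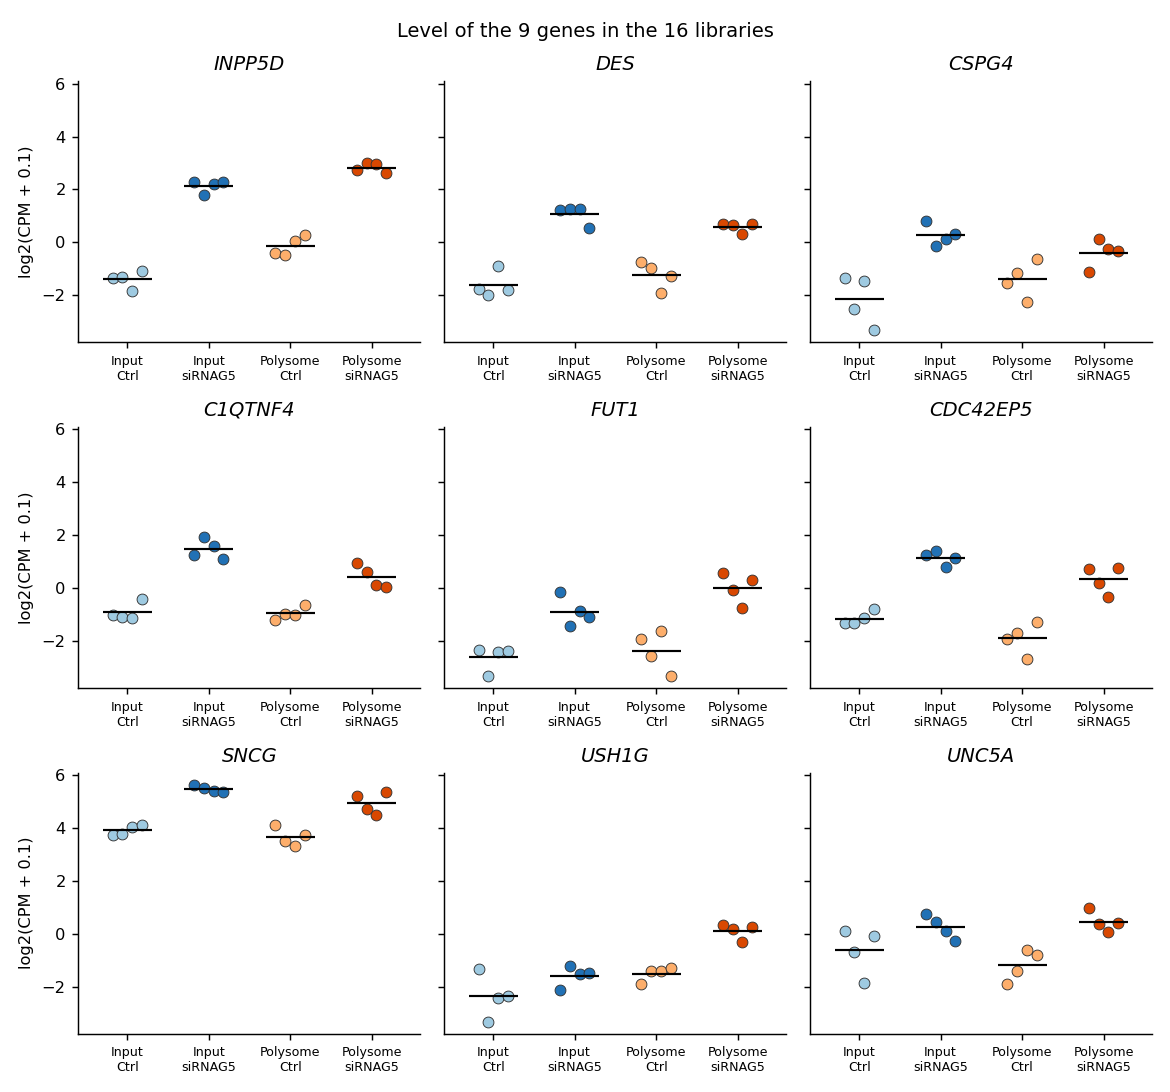
Level of each gene in the 16 libraries, as log2(CPM + 0.1), with one point per library, placed in replicate order, and a bar at the mean of the 4 logged values of each group. INPP5D was highest in all 4 Polysome siRNAG5 libraries, SNCG lay far above the other 8 genes in every group, and USH1G separated the treatments in Polysome but not in Input.

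Promoter sequence was matched in RefSeq (GRCh38.p14) for 5 of the 9 genes, in 7 windows, since SNCG and FUT1 have a pair of start sites each; DES, C1QTNF4, CDC42EP5 and USH1G had no entry. Shown are the windows of SNCG, the most abundant member, and CSPG4, which differed most between the fractions, both of which end directly before the annotated gene. Each holds the 250 bases before the transcription start, 5′ to 3′ on the gene's strand. Capitals mark the GC box, GGGCGG, on either strand. The SNCG window is chr10:86958349-86958598 on the plus strand and the CSPG4 window chr15:75712849-75713098 on the minus strand.
SNCG: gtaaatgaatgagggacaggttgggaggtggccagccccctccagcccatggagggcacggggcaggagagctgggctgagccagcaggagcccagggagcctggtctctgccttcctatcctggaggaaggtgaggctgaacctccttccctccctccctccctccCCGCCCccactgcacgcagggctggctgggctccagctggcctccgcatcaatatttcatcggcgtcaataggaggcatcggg
CSPG4: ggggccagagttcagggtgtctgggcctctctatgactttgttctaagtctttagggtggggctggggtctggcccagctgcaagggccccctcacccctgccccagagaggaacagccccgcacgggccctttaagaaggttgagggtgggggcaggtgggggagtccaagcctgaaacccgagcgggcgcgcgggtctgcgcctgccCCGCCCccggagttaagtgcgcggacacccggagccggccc

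The windows differed widely in composition. GC content was 65.2% for the shown SNCG window, 68.4% for CSPG4, 59.2% for INPP5D and 81.2% for UNC5A, against a median of 58% (quartiles 46.4 and 68%) over 35116 windows of the same length. CG dinucleotides numbered 7, 14, 9 and 36, against a median of 11. The GC box was found in 4 of the 7 member windows, in at least one window of UNC5A, SNCG, CSPG4 and FUT1, and in 42.6% of all windows. The TATA box TATAAA, searched on both strands like the motifs that follow, was in none of the 7 windows and in 10.7% of all windows. The CCAAT box was in none of the 7 and in 32.0% of all windows. The E-box CACGTG was in none of the 7 and in 6.34% of all windows, and the cAMP response element TGACGTCA in none and in 1.65%. A p53 half-site was in none of the 7 and in 5.57% of all windows. These counts describe only the letters in these windows, and no motif searched is contained in another.

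The signalling genes are given first. INPP5D (chromosome 2, 233059967 to 233207903, 27 exons) had 3, 4, 2 and 4 reads in the Input Ctrl libraries and 72, 50, 90 and 90 reads in Input siRNAG5. In Polysome it had 8, 9, 17 and 14 reads in Ctrl and 128, 203, 189 and 130 in siRNAG5. No Ctrl library came near a siRNAG5 library in either fraction. In these bulk samples more cells with the transcript and more transcript per cell cannot be told apart, here and for the other genes. Its level went from 0.288 ± 0.0829 CPM (SD, n = 4) to 4.34 ± 0.671 CPM in Input and from 0.833 ± 0.230 to 7.03 ± 0.910 CPM in Polysome. The log2 FC was 3.89 ± 0.29 (SE) in Input and 3.11 ± 0.23 in Polysome.

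CDC42EP5 (chromosome 19, 54465026 to 54473296, 3 exons) had 3, 4, 4 and 5 reads in Input Ctrl and 34, 38, 33 and 40 in Input siRNAG5. Its Polysome libraries held 2, 3, 1 and 4 reads in Ctrl and 30, 27, 17 and 35 in siRNAG5. The treatments were apart in both fractions, and its siRNAG5 level was lower in Polysome (1.22 ± 0.431 CPM) than in Input (2.14 ± 0.379 CPM). The log2 FC was nearly the same in both, 2.56 ± 0.33 (SE) in Input and 2.77 ± 0.47 in Polysome.

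UNC5A (chromosome 5, 176810519 to 176880898, 15 exons) was clearly separated between the treatments in Polysome alone. In Input it had 10, 7, 2 and 9 reads in Ctrl and 24, 19, 20 and 14 in siRNAG5, and after scaling for depth the groups overlapped (0.178 to 0.994 CPM against 0.736 to 1.60 CPM). In Polysome it had 2, 4, 10 and 6 reads in Ctrl and 37, 31, 23 and 27 in siRNAG5, and the groups were apart. The log2 FC was 0.86 ± 0.38 (SE) in Input, where the gene was not called, and 1.82 ± 0.38 in Polysome.

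Another 3 members act in the Golgi, at the cell surface or outside the cell. CSPG4 (chromosome 15, 75674322 to 75712848, 10 exons) had 3, 1, 3 and 0 reads in Input Ctrl and 25, 12, 20 and 22 in Input siRNAG5, a log2 FC of 2.83 ± 0.51 (SE). In Polysome it had 3, 5, 2 and 7 reads in Ctrl and 7, 26, 18 and 15 in siRNAG5. There siRNAG5 library 1, at 0.358 CPM, lay below Ctrl library 4, at 0.550 CPM. The gene was not tested in Polysome, and its summed reads rested on 17 in Ctrl and 66 in siRNAG5, a ratio of 2.43 with an exact 95% interval of 1.41 to 4.42 that covers counting error only. Reads that match CSPG4 and its pseudogene copies equally were not counted, and no copy held more than 9 reads in a group.

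FUT1 (chromosome 19, 48748011 to 48755390, 2 exons) had the fewest reads in Input Ctrl, with 1, 0, 1 and 1 reads. Input siRNAG5 held 12, 4, 9 and 7 reads, all above Ctrl, a ratio of summed reads of 6.99 (95% counting interval 2.19 to 35.7). Polysome Ctrl held 2, 1, 4 and 0 reads and Polysome siRNAG5 27, 22, 12 and 25, a log2 FC of 2.95 ± 0.57 (SE). With 3 reads in all of Input Ctrl and 7 in Polysome Ctrl, its starting level was hardly measured.

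C1QTNF4 (chromosome 11, 47589667 to 47594411, 2 exons) had 4, 5, 4 and 7 reads in Input Ctrl and 34, 55, 59 and 39 in Input siRNAG5. Polysome held 4, 6, 7 and 7 reads in Ctrl and 36, 37, 24 and 20 in siRNAG5. The Ctrl levels were alike in both fractions (0.447 ± 0.145 and 0.421 ± 0.0922 CPM), whereas the siRNAG5 level was 2.73 ± 0.739 CPM in Input and 1.29 ± 0.428 CPM in Polysome. The log2 FC was 2.61 ± 0.32 (SE) in Input and 1.65 ± 0.34 in Polysome.

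The last 3 members are known from muscle, neurons and the inner ear. DES (chromosome 2, 219418377 to 219426735, 9 exons) had 2, 2, 5 and 2 reads in Input Ctrl and 34, 34, 46 and 26 in Input siRNAG5. In Polysome it had 6, 6, 3 and 4 reads in Ctrl and 30, 38, 28 and 33 in siRNAG5. All siRNAG5 libraries were above all Ctrl libraries, with a log2 FC of 3.03 ± 0.38 (SE) in Input and 2.09 ± 0.34 in Polysome.

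SNCG (chromosome 10, 86958599 to 86963258, 5 exons) was the one member with ample reads. Input held 135, 182, 184 and 181 reads in Ctrl and 754, 689, 854 and 775 in siRNAG5. Polysome held 210, 165, 179 and 168 reads in Ctrl and 727, 683, 544 and 896 in siRNAG5. The level went from 15.1 ± 1.89 to 44.9 ± 4.19 CPM in Input and from 13.0 ± 3.26 to 31.8 ± 8.91 CPM in Polysome, with no overlap. Its log2 FC, 1.58 ± 0.10 (SE) in Input and 1.33 ± 0.23 in Polysome, was the smallest in Polysome of the 8 members tested and had the smallest SE in both fractions. MMRN2, which overlaps SNCG on the opposite strand, held between 12 and 37 reads per group in sum.

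USH1G (chromosome 17, 74916083 to 74923256, 3 exons) was near the limit of detection everywhere but in one group. It had 3, 0, 1 and 1 reads in Input Ctrl, 2, 5, 5 and 5 in Input siRNAG5, and 2, 4, 5 and 4 in Polysome Ctrl. Polysome siRNAG5 held 23, 27, 17 and 24 reads. A difference between the treatments was not detectable in Input at this depth (ratio of summed reads 2.23, 95% counting interval 0.789 to 7.72), and in Polysome the log2 FC was 1.95 ± 0.34 (SE).

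**Figure D2:**
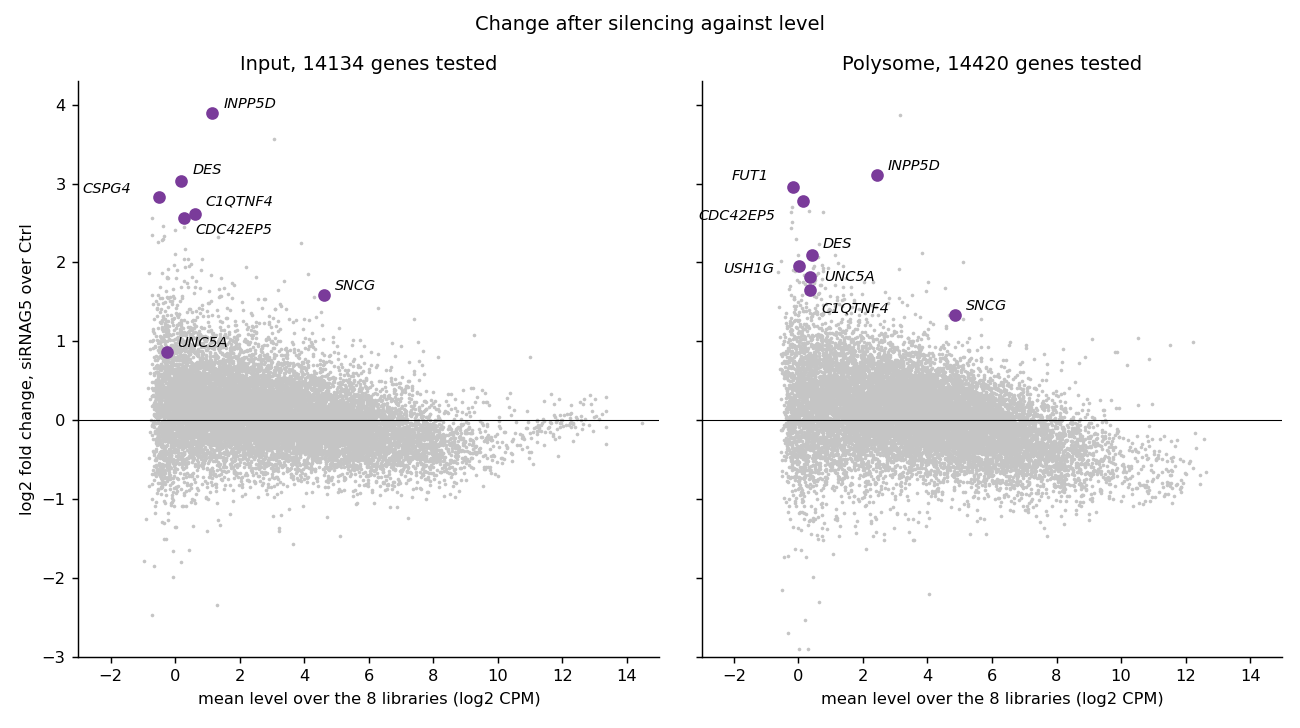
Log2 FC of siRNAG5 over Ctrl against mean level in log2 CPM, for all genes tested in Input (14134) and Polysome (14420), with the tested members as large points. Apart from SNCG the members lie at the low end of the level axis, and 38 genes of Polysome with a log2 FC under -3 are outside the plotted range.

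Levels between genes were compared per length. In Input Ctrl, SNCG stood at 20.0 RPKM and the other 8 between 0.0193 RPKM (CSPG4) and 0.398 RPKM (CDC42EP5). In Input siRNAG5, SNCG came first with 59.4 ± 5.54 RPKM (SD, n = 4), followed by CDC42EP5 (2.39 ± 0.423) and C1QTNF4 (1.93 ± 0.523), whose ranges overlapped. DES (0.913 ± 0.203) and INPP5D (0.885 ± 0.137) came next and overlapped each other but no other member. The ranges of UNC5A (0.308 ± 0.0991) and CSPG4 (0.139 ± 0.0444), of CSPG4 and FUT1 (0.137 ± 0.0673), and of FUT1 and USH1G (0.0688 ± 0.0235) overlapped in turn. In Polysome siRNAG5 the order began with SNCG, INPP5D (1.44 ± 0.186), CDC42EP5 (1.36 ± 0.481) and C1QTNF4 (0.916 ± 0.303), and it ended with CSPG4 (0.0842 ± 0.0318). The range of INPP5D there (1.22 to 1.59 RPKM) lay inside that of CDC42EP5 (0.781 to 1.80) and overlapped that of C1QTNF4 (0.652 to 1.304), so the order of these 3 genes in Polysome is within their spread.

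The mRNA GC content and length, which the choice did not use, were set beside those of 14958 genes tested over all libraries. The Input Ctrl level, on which the choice rested in part, was set beside them too. The GC content of the canonical mRNA was above the median of 48.5% for all 9 genes, ranging from 54.5% (FUT1) to 72.8% (C1QTNF4). C1QTNF4 and CDC42EP5 were at the 99.9th and 99.8th percentile of GC content. Length did not set the members apart, with 756 to 8290 bases around a median of 2904 and 5 of 9 above it. Their Input Ctrl level was low: 8 of the 9 were under 1 CPM, at or below the 6.44th percentile, and SNCG was at the 62.7th. A low Ctrl level favours a large measured increase, so it is not independent of the choice. Genes other than members with a GC content at or above that of FUT1 were called higher in 17.3% of cases in Input and 4.91% in Polysome, against 10.4 and 3.89% of all genes other than members. Genes with a Ctrl mean under 1 CPM were called higher in 23.7% of cases in Input and 7.39% in Polysome, but such genes pass the filter largely through high siRNAG5 libraries, which by itself raises these shares. The part of GC content and of low level in the members' changes was not tested.

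To see whether the change differed between the fractions, all 16 libraries were fitted together. No gene of 14958 was called for a difference between the fractions, with 1089 at an unadjusted p under 0.05 in edgeR's quasi-likelihood test. The members' differences are given as a description, as log2 FC in Polysome minus log2 FC in Input. CSPG4 (-1.61 ± 0.80, SE), C1QTNF4 (-1.001 ± 0.50), DES (-0.98 ± 0.55) and INPP5D (-0.82 ± 0.39) had the smaller value in Polysome. UNC5A (0.91 ± 0.60) and USH1G (0.81 ± 0.86) had the larger value there. For USH1G the difference was within 1 SE, and it was -0.07 without Input Ctrl library 1 and 1.28 without Input Ctrl library 2. Without Input Ctrl library 3 the value of DES was -1.43, and without Polysome Ctrl library 3 that of FUT1 was 0.84. SNCG (-0.27 ± 0.26), CDC42EP5 (0.17 ± 0.54) and FUT1 (0.23 ± 1.60) differed by about 1 SE or less. The SE of FUT1 is not a reliable spread here, because it was derived from the F value of a difference near 0. In the same fit the SE of its log2 FC was 0.76 in Input and 0.55 in Polysome.

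**Figure D3:**
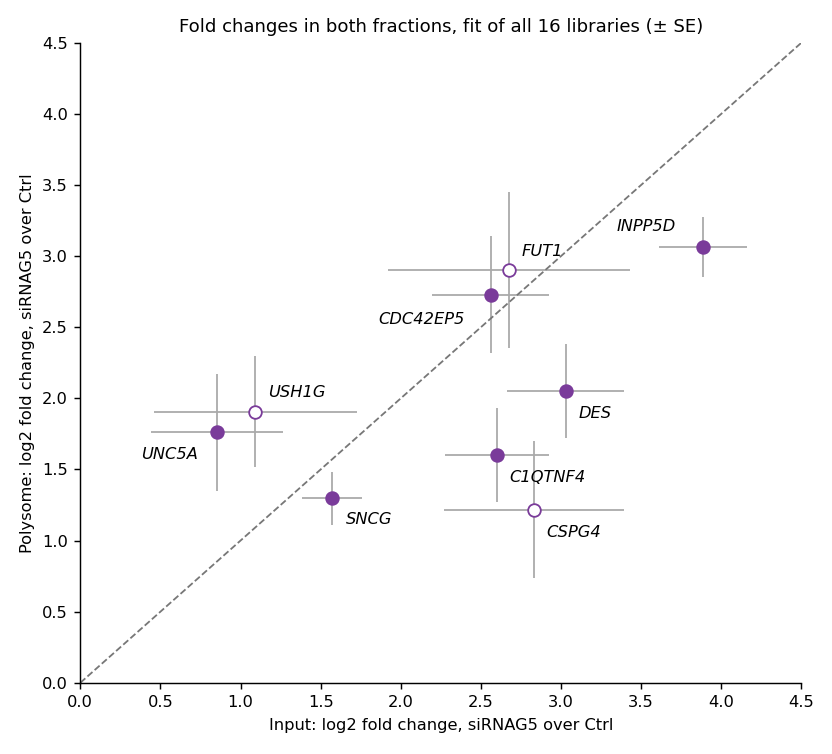
Log2 FC of siRNAG5 over Ctrl in Input (horizontal) and Polysome (vertical) with SE bars, from one fit of all 16 libraries; open circles mark genes that did not pass the filter in one fraction when fitted alone, and the dashed line marks equal change. UNC5A and USH1G lie above the line, INPP5D, DES, C1QTNF4, CSPG4 and SNCG below it, and FUT1 and CDC42EP5 within 1 SE of it.

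Polysome against Input within the siRNAG5 cells asks how an mRNA's share of the polysomal pool compares with its share of the lysate. The members were chosen for high values in these very libraries, so a gene that entered through its Polysome siRNAG5 level lies higher in Polysome by that choice. Of the 9 genes, 3 were called higher in Polysome (23.9% of 14795 genes tested) and 2 lower (21.2%), and nothing is read from these counts. The log2 FC was 2.08 ± 0.34 (SE) for USH1G, 1.11 ± 0.40 for FUT1 and 0.78 ± 0.17 for INPP5D, the 3 called higher. It was -0.99 ± 0.28 for C1QTNF4 and -0.73 ± 0.27 for CDC42EP5, the 2 called lower. The other values were -0.42 ± 0.17 for SNCG, -0.44 ± 0.23 for DES, -0.60 ± 0.33 for CSPG4 and 0.29 ± 0.30 for UNC5A.

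The individual libraries gave the following ranges. USH1G lay between 0.700 and 1.18 CPM in Polysome siRNAG5 and between 0.133 and 0.335 CPM in Input siRNAG5, and INPP5D between 5.99 and 7.81 CPM against 3.35 and 4.79 CPM, both without overlap. C1QTNF4 lay between 0.921 and 1.84 CPM in Polysome and between 2.05 and 3.69 CPM in Input, and CDC42EP5 between 0.700 and 1.61 CPM against 1.64 and 2.55 CPM, also without overlap. FUT1 overlapped, with 0.494 to 1.38 CPM in Polysome and 0.268 to 0.798 CPM in Input. The call of FUT1 was lost under 5 of 13 alternatives and that of CDC42EP5 under 7.

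**Figure D4:**
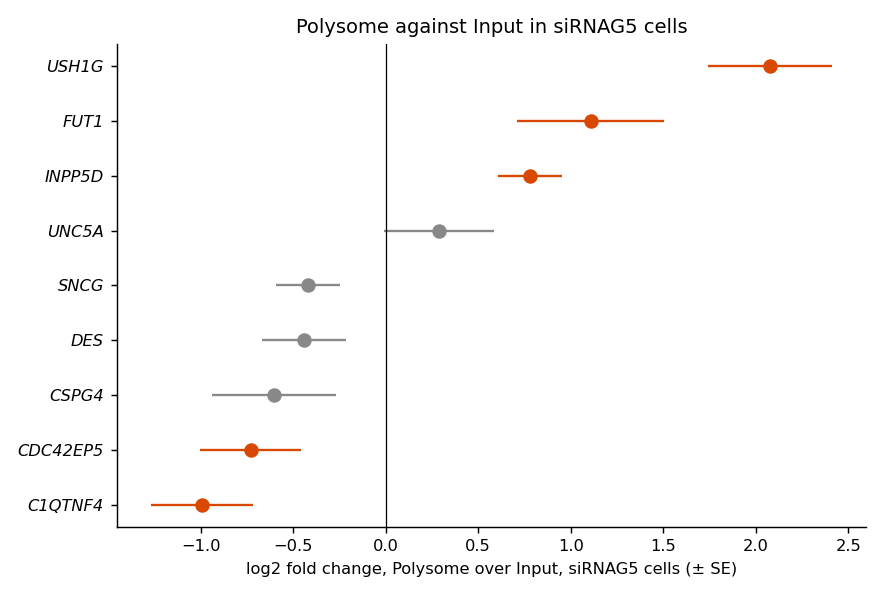
Log2 FC of Polysome over Input in siRNAG5 cells with SE bars for the 9 genes, with called genes in orange. USH1G, FUT1 and INPP5D lie to the right of 0, and C1QTNF4 and CDC42EP5 to the left.

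In Ctrl cells the same comparison was mostly out of reach. SNCG alone passed the filter, with a log2 FC of -0.21 ± 0.17 (SE), where 20.8% of 13666 genes were called higher and 18.8% lower. INPP5D lay higher in every Polysome Ctrl library (0.617 to 1.10 CPM) than in every Input Ctrl library (0.178 to 0.379 CPM). It did not pass the filter, and without the filter its log2 FC was 1.55 ± 0.52 (SE) in edgeR. The other 7 members had at most 28 summed reads per group, and their ratios of Polysome to Input had counting intervals that held 1.

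Relatives of each member were taken from 9 lists of its family or pathway, 187 genes in all, of which 127 were tested in Input and 129 in Polysome. In Input 24 of the 127 were called higher, or 18.9% beside 10.5% of all genes, and 3 lower (6.02% of all genes). In Polysome 6 of the 129 were called higher, or 4.65% beside 3.95%, and 1 lower (4.00% of all genes). The median log2 FC of the tested relatives was 0.19 in Input and 0.17 in Polysome. The Polysome calls depended on most libraries. None of the relatives was called without Polysome Ctrl library 2. With Ctrl 4, siRNAG5 2 or siRNAG5 3 left out 1 was called higher, without Ctrl 1 it was 2, and without Ctrl 3 or siRNAG5 1, or with the replicate block, it was 3. With a term for the 3 Polysome libraries that stood apart, 16 were called higher and 5 lower. In Input, with Ctrl libraries 3 and 4 both left out, 22 were called higher and 4 lower.

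The proteoglycans and NG2 partners, the relatives of CSPG4, held 9 of 18 tested that were called higher and none lower in Input, with a median log2 FC of 0.56. Without Ctrl libraries 3 and 4, 6 of 19 were called higher. GPC2, a glypican of developing neurons, stood at 1.39 ± 0.625 CPM (SD, n = 4) in Ctrl and 4.32 ± 0.912 CPM in siRNAG5 (log2 FC 1.66 ± 0.24, SE, adjusted p = 3.17e-06 in edgeR). The basement membrane proteoglycan genes AGRN (log2 FC 1.38 ± 0.29, adjusted p = 0.000326 in edgeR) and HSPG2 (0.92 ± 0.32, adjusted p = 0.0225 in edgeR) also rose, and HSPG2 was lost without Input Ctrl library 2 or 3 or Input siRNAG5 library 4 and in DESeq2. In Polysome none of 17 was called. GPC2 missed the threshold there (log2 FC 1.77 ± 0.51, adjusted p = 0.0528 in edgeR), and AGRN and HSPG2 had negative values (-0.47 ± 0.31 and -0.98 ± 0.35).

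Among 9 genes tested in Input from the Usher syndrome list, which also held genes such as MYO1C and KIFBP, 4 were called higher. USH1C, the harmonin scaffold that binds the USH1G protein, rose from 6.55 ± 1.11 to 12.9 ± 0.945 CPM (SD, n = 4) in Input (log2 FC 1.00 ± 0.13, SE, adjusted p = 4.28e-07 in edgeR) and from 5.21 ± 1.16 to 9.35 ± 1.13 CPM in Polysome (0.89 ± 0.19, adjusted p = 0.0217 in edgeR). The Polysome call of USH1C was lost without Polysome Ctrl library 2 or Polysome siRNAG5 library 2. The others were PDZD7 (log2 FC 0.60 ± 0.16), WHRN (0.55 ± 0.14) and CDH23, the tip link cadherin (0.52 ± 0.14, named after its value was seen), with adjusted p of 0.00309, 0.00311 and 0.00304 in edgeR. WHRN was lost without Input Ctrl libraries 3 and 4 (adjusted p = 0.0621 in edgeR), and its log2 FC fell under 0.5 without Input Ctrl library 3 (0.41) or was at 0.50 without Input siRNAG5 library 1. Without the latter library, 2 Usher genes were called.

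The intermediate filament genes, relatives of DES, held 3 of 12 called higher and 1 lower in Input and none of 13 in Polysome. NES, the nestin gene of neural precursors, rose from 0.633 ± 0.390 to 2.09 ± 0.353 CPM (SD, n = 4; log2 FC 1.74 ± 0.32, SE, adjusted p = 7.21e-05 in edgeR). LMNA, which encodes the A-type lamins, rose by 0.70 ± 0.08 (adjusted p = 5.59e-08 in edgeR) and KRT10, a keratin, fell by 0.55 ± 0.07 on the log2 scale (adjusted p = 6.63e-07 in edgeR). Both calls were lost with all 16 libraries in one fit (LMNA adjusted p = 0.0644 and KRT10 adjusted p = 0.0617 in edgeR), and that of KRT10 also without Input Ctrl library 2. Over the settings tried, 1 to 4 genes of this list were called higher in Input.

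The CDC42 effectors and septins held no call in the direction of CDC42EP5. Of 20 tested in each fraction none was called higher and 1 was called lower: CDC42EP2, a paralog of CDC42EP5, fell from 16.5 ± 2.21 to 8.69 ± 0.946 CPM (SD, n = 4) in Input (log2 FC -0.91 ± 0.12, SE, adjusted p = 5.11e-07 in edgeR) and from 19.8 ± 3.83 to 10.1 ± 1.27 CPM in Polysome (-0.92 ± 0.17, adjusted p = 0.0126 in edgeR, and 0.0583 without Polysome Ctrl library 2). CDC42EP1, CDC42EP3 and CDC42EP4 had log2 FC between -0.02 and 0.06 in Input and were not called.

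The synuclein list held 2 of 10 called higher in Input and 3 of 11 called higher in Polysome. VAMP2, the synaptic vesicle SNARE that binds synuclein, rose in Input (log2 FC 0.71 ± 0.13, SE, adjusted p = 7.78e-05 in edgeR) and in Polysome (0.66 ± 0.15, adjusted p = 0.0235 in edgeR). SNCB, the beta-synuclein gene, rose in Input (0.57 ± 0.11, adjusted p = 7.99e-05 in edgeR) and was named after its value was seen. In Polysome SNCAIP (log2 FC 1.39 ± 0.34, adjusted p = 0.031 in edgeR) and TPPP (0.82 ± 0.23, adjusted p = 0.0476 in edgeR) also passed. The Polysome call was lost under 10 of 14 alternatives for TPPP, among them each library left out and the replicate block (adjusted p = 0.0768 in edgeR). It was lost under 5 for SNCAIP and under 4 for VAMP2, with 1 library left out in each case.

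The remaining lists held few calls. Of 23 inositol phosphatase and PI3K pathway genes in Input, INPPL1, which encodes SHIP2 and is the closest relative of INPP5D, was called higher (15.1 ± 0.762 to 23.6 ± 2.61 CPM, SD, n = 4; log2 FC 0.66 ± 0.10, SE, adjusted p = 6.25e-06 in edgeR). Of 14 genes tested in Input for fucosyltransferases, GDP-fucose supply and related blood group enzymes, 2 were called higher. They were A4GALT, the P blood group enzyme (1.31 ± 0.29, adjusted p = 0.000627 in edgeR), and GMDS, which supplies GDP-fucose (0.54 ± 0.07, adjusted p = 1.19e-06 in edgeR). C1QTNF6 (1.09 ± 0.22, adjusted p = 0.0002 in edgeR) and C1QL4 (1.00 ± 0.21, adjusted p = 0.000404 in edgeR) were called among 6 C1q and TNF related genes in Input, and C1QL4 also in Polysome (0.69 ± 0.19, adjusted p = 0.0469 in edgeR), a call lost under 10 of 14 alternatives, among them the replicate block (adjusted p = 0.0954 in edgeR). The log2 FC of GMDS fell under 0.5 without Input Ctrl library 2 or Input siRNAG5 library 1. Of 15 genes tested from the list of netrin ligands, receptors and partners only NTNG2 was called in Input (0.74 ± 0.29, adjusted p = 0.0478 in edgeR), a call lost under 11 of 14 alternatives.

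**Figure D5:**
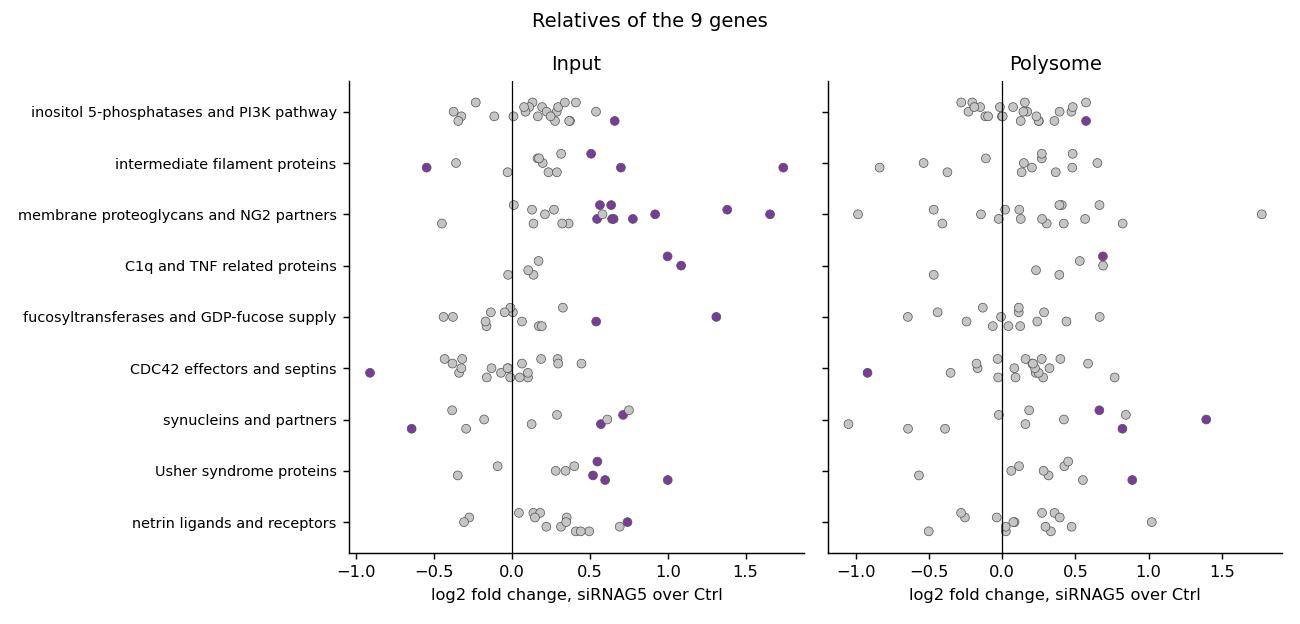
Log2 FC of siRNAG5 over Ctrl for the tested relatives of the 9 genes in Input and Polysome, one point per gene and one line per list, with called genes in purple. In Input 9 of the 18 genes of the list of proteoglycans and NG2 partners were called higher, and the one called CDC42 effector, CDC42EP2, lies to the left of 0 in both fractions.

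The nearest tested gene on each side of every member was compared in the same way, 18 neighbours in all, none of which overlapped a member. Their gaps reached up to 566 kb, for RDH13 beside CDC42EP5. In Input 4 were called higher (10.5% of all genes tested) and 1 lower (6.02%), with a median log2 FC of 0.16. In Polysome 1 was called higher (3.95% of all genes tested) and none lower (4.00%). Nothing is read from these counts. Beside INPP5D, NGEF at 46.7 kb rose in Input (log2 FC 0.74 ± 0.13, SE, adjusted p = 2.81e-05 in edgeR), whereas ATG16L1 at 2.15 kb did not pass (-0.22 ± 0.13). Beside DES, the striated muscle kinase gene SPEG at 8.11 kb rose from 1.95 ± 0.364 to 3.82 ± 0.432 CPM (SD, n = 4; log2 FC 0.98 ± 0.20, adjusted p = 0.00023 in edgeR). Beside CSPG4, SNX33 at 12.02 kb rose (0.86 ± 0.22, adjusted p = 0.00315 in edgeR), and beside C1QTNF4, MTCH2 at 22.9 kb fell by 0.56 ± 0.06 on the log2 scale (adjusted p = 7.22e-08 in edgeR). Beside USH1G, FDXR at 43.1 kb, which encodes ferredoxin reductase, rose in Input (0.73 ± 0.08, adjusted p = 2.84e-08 in edgeR) and in Polysome (0.66 ± 0.12, adjusted p = 0.0119 in edgeR). No neighbour of FUT1, CDC42EP5, SNCG or UNC5A was called.

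The genes whose pattern over the 16 libraries was most like that of each member are a description, measured as the root mean square difference of centred log2 CPM. HSD17B14 was near SNCG, at 0.22. CHAC1, an enzyme that degrades glutathione, was among the closest pair for INPP5D (0.81), DES (0.46) and FUT1 (0.46). It averaged 9.14 CPM in Input Ctrl, 32.5 in Input siRNAG5, 10.8 in Polysome Ctrl and 42.2 in Polysome siRNAG5. The other gene of the pair was ADM2 for INPP5D (0.78) and KRTAP19-1 for DES (0.42), both closer than CHAC1, and CREB3L1 for FUT1 (0.54). KRTAP19-1 (0.45) was also near CDC42EP5, after NUPR1 (0.39). UPK2 (0.40) and PLPPR3 (0.46) were nearest to C1QTNF4, CALHM5 (0.50) and KLHL3 (0.51) to CSPG4, ZCCHC24 and PPP1R12B (both 0.40) to USH1G, and PTP4A3 (0.46) and ITIH5 (0.49) to UNC5A. Among the members themselves C1QTNF4 and SNCG were the most alike (0.46) and INPP5D and UNC5A the least (1.25). The points share libraries and depth, and sampling noise enlarges the distance of genes with few reads.

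Markers of the tissues in which the members are best known were read in the same libraries. Of 14 blood markers 9 had reads in Input siRNAG5 and 10 in Polysome siRNAG5, and the list summed to between 12.8 and 17.3 CPM and between 9.06 and 10.4 CPM there, against 11.9 to 14.5 CPM and 13.8 to 15.8 CPM in Ctrl. PTPRC, CD3E, ITGAM and HBB, which define blood cells, had 0 reads in all 8 siRNAG5 libraries, where INPP5D held 302 reads in Input and 650 in Polysome. Of 14 muscle markers 8 had reads in Input siRNAG5 and 12 in Polysome siRNAG5, summing to between 2.89 and 4.06 CPM and between 2.19 and 3.68 CPM, against 2.18 to 3.08 and 1.51 to 2.29 CPM in Ctrl. MYF5 had no read in any library and MYOG 1 read in all, where DES held 140 and 129 reads in siRNAG5. MYOD1 had reads in every library, 51 in sum in Input Ctrl and 91 in Input siRNAG5, and 57 and 104 in Polysome. MB had 0 and 12 summed reads in Input and 1 and 12 in Polysome, and ACTA1 23 and 16, and 7 and 6. MYOD1, MB and ACTA1 were named after their values were seen. CNN1 and CKM of this list, named after their values were seen, had 12 and 11 summed reads in Input Ctrl and 51 and 41 in Input siRNAG5, and 10 and 9 in Polysome Ctrl and 60 and 35 in Polysome siRNAG5. Their part in the result was not tested.

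The 9 pericyte and oligodendrocyte precursor markers summed to between 28.5 and 34.7 CPM in Input siRNAG5 (27.6 to 31.7 in Ctrl) and between 32.1 and 37.5 CPM in Polysome siRNAG5 (35.6 to 41.3 in Ctrl), and 8 had reads in each group. SOX10 had no read in any library. The 10 sensory neuron and hair cell markers summed to between 16.8 and 19.8 CPM in Input siRNAG5 (17.5 to 18.7 in Ctrl) and between 26.5 and 34.0 CPM in Polysome siRNAG5 (24.8 to 34.7 in Ctrl). The inner hair cell gene OTOF had no read and POU4F3 had 1 read each in Input and Polysome siRNAG5. The liver genes were lower in siRNAG5, where the members were higher, and their part in the result was not tested. In Polysome they were present in all 4 Ctrl libraries and cannot be told apart from the treatment. In Input the members' log2 FC were as large with Ctrl libraries 3 and 4 left out for INPP5D (3.84), CSPG4 (2.69), C1QTNF4 (2.80), CDC42EP5 (2.80) and SNCG (1.74), larger for DES (3.52) and smaller for UNC5A (0.62). With a term for the Polysome libraries that stood apart, the 8 members tested in Polysome had log2 FC between 1.15 (SNCG) and 3.20 (INPP5D).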

How the data were processed

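RNA-Seq was analysed in 16 libraries of HEK293 cells, 4 each of Input Ctrl, Input siRNAG5, Polysome Ctrl and Polysome siRNAG5, grouped by their labels. The authors made stranded poly(A) libraries, aligned the reads to GRCh38 with STAR 2.5.3a (per the submitters' processing notes) and counted them with QoRTs, and deposited whole-number counts per gene without normalization. Reads listed as not unique (4.88 to 42.4% of a library), ambiguous (4.14 to 7.41%) or on no feature (0.667 to 1.33%) entered neither the library sizes nor any test. Of 58302 identifiers 57532 were named with GENCODE v44, a later annotation of the same build, from which coordinates were taken.

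Each comparison was fitted in R 4.3.3 by the quasi-likelihood test of edgeR 4.0.16, after filterByExpr and TMM scaling and with Benjamini-Hochberg adjustment over all genes tested, on its own groups only, and the difference between the fractions over all 16 libraries. Polysome against Input had been planned as a test of the members and is given for them as a description, since the choice used the same libraries. SE was the log2 FC divided by the square root of F. CPM used TMM factors over the 16 libraries. Tables and plots were made in Python 3.11.15 (scipy 1.17.1, numpy 2.4.6, pandas 2.3.3, matplotlib 3.10.9). On simulated counts with 200 changed genes, the test called 196 of them when siRNAG5 was set against Ctrl in Input (13952 genes tested) and 157 when it was in Polysome (14236 genes tested). It called 179 and 174 between the fractions in Ctrl and siRNAG5 (13466 and 14648 genes tested), and 126 for the difference (14644 genes tested). Unchanged genes that were called numbered 7, 10, 10, 13 and 6 in the same order. The changed genes were drawn only from genes with a mean above 1 CPM, so these counts do not describe genes below that level.

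The members, lists and tests were chosen with earlier results of these data known. Named beside the members were at most 3 called relatives per list with the largest change, called neighbours, and the 2 genes of most similar pattern for each member; a few genes this rule selects are not reported here. Alternatives were RLE size factors, no filter beyond 1 read, DESeq2 1.42.0 without shrinkage, all 16 libraries in one fit, a replicate block, and each library left out. Chosen after seeing the data were Input Ctrl 3 and 4 both left out, and a term for the Polysome libraries that stood apart. The labels name 4 independent samples per group. Counting intervals are exact (Clopper-Pearson, 95%). Protein sequences and the promoters of 4 members were not analysed here.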

Additional observations from a re-analysis of the deposited data

Results flagged for a closer look

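Of 36 sets of 4 libraries (9 genes in 4 groups), 4 held a library whose gap to the nearest other, over the whole range of the group, exceeded Dixon's 95% critical value for 4 samples. About 1 in 20 such sets is expected to by chance where values are continuous and normal. Sets of a few whole reads, as in most Ctrl groups here, need not keep to that rate.

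DES was at 0.444 CPM in Input Ctrl library 3, against 0.150 to 0.199 CPM in the others, which is 5 reads against 2 each. DES was also at 1.37 CPM in Input siRNAG5 library 4, against 2.26 to 2.29 CPM in the others. C1QTNF4 was at 0.662 CPM in Input Ctrl library 4, against 0.355 to 0.397 CPM. FUT1 was at 0 CPM in Input Ctrl library 2, against 0.0888 to 0.0994 CPM, which is 0 reads against 1 each.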

How the results depend on the processing

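The count of genes called in Polysome, 1146, was the least stable: it was 1766 with no filter beyond 1 read, 1971 in DESeq2, 2597 with all 16 libraries in one fit, 3481 with a term for the Polysome libraries that stood apart, and 189 to 1523 with 1 library left out, the lowest without Polysome Ctrl 2. With 1 library left out, counts were 1893 to 2494 in Input (2330 with all), 4909 to 5799 for Polysome against Input in Ctrl (5408) and 6068 to 7081 in siRNAG5 (6667). The difference between the fractions gave 0 or 1 call. Members called higher numbered 6 to 7 in Input and 4 to 8 in Polysome with 1 library left out. In siRNAG5 cells, 2 to 3 members were then called higher and 1 to 3 lower in Polysome than in Input, and the number lower was 1 with no filter and 1 in DESeq2.

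Over 84 results for single genes and 1202 alternatives, 1092 kept their direction and side of the threshold or moved by less than 1 SD, 75 lost a call, 29 gained one, 6 moved by more and 0 reversed. The causes were not tested.

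The study's text describes Input and Polysome RNA as taken from individual lysates, a pairing that the main fits left out. The replicate block took it in by replicate number. Samples with the same replicate number did not consistently deviate together. Their correlations ran from -0.03 to 0.07 between the treatments in Input, -0.53 to 0.48 in Polysome, -0.07 to 0.19 between the fractions in Ctrl and -0.21 to 0.22 in siRNAG5, and at most 2 of 4 libraries were most like their own number. With the replicate block, 2313 genes were called in Input, 1003 in Polysome, 5532 and 6705 between the fractions in Ctrl and siRNAG5, and 0 for the difference, and the counts of members called were 6, 8, 3 and 2 as without it.

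Depth limits the members most in Ctrl, where 8 of the 9 had under 1 CPM.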
